A study of Mus musculus with 8 samples.

Results

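Dbp and 9 further genes of the circadian clock were followed in the hearts of 4 Dio3+/+ and 4 Dio3-/- fetuses. Dbp, Tef and Hlf encode the PAR bZIP activators, Nfil3 the repressor of the same DNA sites, Per1, Per2 and Per3 the period repressors, Nr1d1 and Nr1d2 the REV-ERB repressors, and Arntl the activator BMAL1. These are 10 of the 26590 gene symbols in the deposited table, where they have 35 transcript rows. The row of each gene was chosen by its level, as the row with the highest average of both genotype means, so the levels are a description. The list itself was drawn up with earlier results of these hearts known, among them the difference in Dbp.

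All fetuses were on the C57BL/6J background, and the series describes the hearts as male. Dio3 encodes the type 3 deiodinase, which inactivates thyroid hormone. It was inactivated in the whole animal and not in the heart alone. The sample titles give embryonic day E13.5 for all 8 hearts, whereas 2 of the Dio3-/- hearts, numbers 3 and 4, carry E18.5 in their age field, and the study's Methods give another age. Each heart came from an individual mouse, but the table holds only the mean and the coefficient of variation (CV, the SD divided by the mean) of each genotype. These hearts could therefore be neither shown singly nor left out, and an effect of age cannot be told apart from that of genotype. Read totals are not part of the table either, so the depth behind each value cannot be had from it, and the range of aligned reads that the study's Methods state was not used here. The Dio3 transcript itself was too low to check the labels, with authors' means of 0.35 RPKM (CV 1.23) in the Dio3+/+ and 0.13 RPKM (CV 0.76) in the Dio3-/- genotype. RPKM corrects a read number for transcript length and for sequencing depth, so levels can be compared between genes.

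The circadian clock is a loop of transcription and repression that runs in most cells. BMAL1, with its partner CLOCK, binds E-boxes and activates the period, cryptochrome, REV-ERB and Dbp genes. The period and cryptochrome proteins then repress BMAL1 and CLOCK, and the REV-ERB proteins repress Arntl. DBP, TEF and HLF carry rhythm to further genes through D-boxes, which NFIL3 occupies as a repressor. Clock transcripts therefore vary with the time of day in adult tissues. The hour at which these hearts were collected is not given in the sources used here, and its part in the values below was not tested.

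The promoters of 4 members are printed. Dbp had the highest log2 fold change of the 10, Hlf is the other PAR bZIP gene that passed the test, and Per1 was the member that fell. Per3, which did not pass, was chosen because its promoter holds D-box letters. Nr1d2 passed the test but is not printed. Each sequence is from RefSeq (build GRCm38.p6) and runs 5′ to 3′ on the strand of the gene, mostly upstream of a transcription start. Capitals mark matches on either strand to an E-box (CACGTG), an E-prime box (CACGTT), a D-box (TTATGTAA or TTACGTAA), a cAMP response element (TGACGTCA) or a nuclear receptor half-site (AGGTCA), which do not overlap one another here. The letters searched were chosen after the expression values had been seen. The build of the expression table is not stated, so these positions belong to the sequences only.
Dbp, chr7:45704997-45705296, plus strand: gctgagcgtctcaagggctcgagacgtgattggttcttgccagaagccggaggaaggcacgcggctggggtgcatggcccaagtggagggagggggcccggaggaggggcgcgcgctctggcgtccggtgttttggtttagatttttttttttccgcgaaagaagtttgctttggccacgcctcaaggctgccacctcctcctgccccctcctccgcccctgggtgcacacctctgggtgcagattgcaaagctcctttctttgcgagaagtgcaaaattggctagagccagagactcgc
Hlf, chr11:90390868-90391167, minus strand: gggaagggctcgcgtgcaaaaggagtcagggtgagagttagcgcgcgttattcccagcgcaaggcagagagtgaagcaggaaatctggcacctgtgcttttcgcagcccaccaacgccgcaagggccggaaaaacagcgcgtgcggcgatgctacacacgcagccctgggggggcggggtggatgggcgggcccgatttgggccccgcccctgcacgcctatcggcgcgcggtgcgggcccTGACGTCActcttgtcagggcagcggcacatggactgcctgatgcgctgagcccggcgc
Per1, chr11:69098699-69098998, plus strand: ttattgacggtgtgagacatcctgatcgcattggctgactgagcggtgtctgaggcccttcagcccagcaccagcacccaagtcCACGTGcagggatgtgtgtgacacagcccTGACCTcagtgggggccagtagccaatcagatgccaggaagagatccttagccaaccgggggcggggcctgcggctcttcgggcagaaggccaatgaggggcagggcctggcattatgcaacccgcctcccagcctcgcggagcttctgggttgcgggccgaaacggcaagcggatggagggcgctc
Per3, chr4:151044616-151044915, minus strand: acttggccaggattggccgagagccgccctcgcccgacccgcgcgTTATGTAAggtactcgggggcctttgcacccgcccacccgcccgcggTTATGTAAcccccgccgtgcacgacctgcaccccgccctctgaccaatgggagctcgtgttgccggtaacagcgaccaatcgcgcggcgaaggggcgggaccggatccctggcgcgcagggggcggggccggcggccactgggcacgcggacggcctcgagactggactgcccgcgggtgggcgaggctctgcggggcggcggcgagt

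The RefSeq table held 12 promoters for 9 of the 10 genes, all but Per2. The Per3 promoter had 2 D-box matches, at −205 and −158 from the start, and a D-box was found in 1.06% of all 32851 promoters. The Per1 promoter printed here had an E-box at −166 and a half-site at −137. An E-box was also found in both promoters of Tef, against 7.15% of all promoters, and an E-prime box in that of Nr1d1, against 4.68%. The Hlf promoter had a cAMP response element at −9, against 1.79% of all promoters. Half-sites were found in promoters of Nfil3, Per1, Nr1d2 and Arntl, and in 16.3% of all promoters. None of the letters searched was in the printed window of Dbp, and no member promoter held a direct repeat of the half-site spaced by 4 bases, the arrangement preferred by thyroid hormone receptors, which 0.0152% of all promoters held. These matches describe letters and do not show binding.

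All 10 clock transcripts were present in the fetal heart above the 1 RPKM needed for testing. In Dio3+/+ hearts the repressor Nfil3 was the highest (13.77 RPKM, CV 0.09), and Tef came next (10.79 RPKM, CV 0.07). Per1 followed at 9.52 RPKM (CV 0.03). Nr1d2 (6.18 RPKM) and Nr1d1 (6.12 RPKM) were next, at levels closer to each other than the sum of their SDs. Dbp was sixth, with 4.29 RPKM (CV 0.05), followed by Hlf (3.77 RPKM) and Arntl (3.40 RPKM), which lay within their spread of each other. Per3 (2.28 RPKM) and Per2 (2.13 RPKM) were lowest and were also not separated by their spread. In Dio3-/- hearts Nr1d2 (8.05 RPKM), Per1 (7.81 RPKM), Dbp (7.77 RPKM) and Nr1d1 (7.26 RPKM) formed a run in which no neighbours differed beyond the sum of their SDs. Nfil3 and Tef, and Arntl and Per3, were within their spread there as well. The spread between hearts of a genotype was small for all 10 genes, with a CV from 0.03 to 0.10 in Dio3+/+ and from 0.04 to 0.12 in Dio3-/- hearts. The median CV over all tested genes was 0.09 and 0.06.

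**Figure D1:**
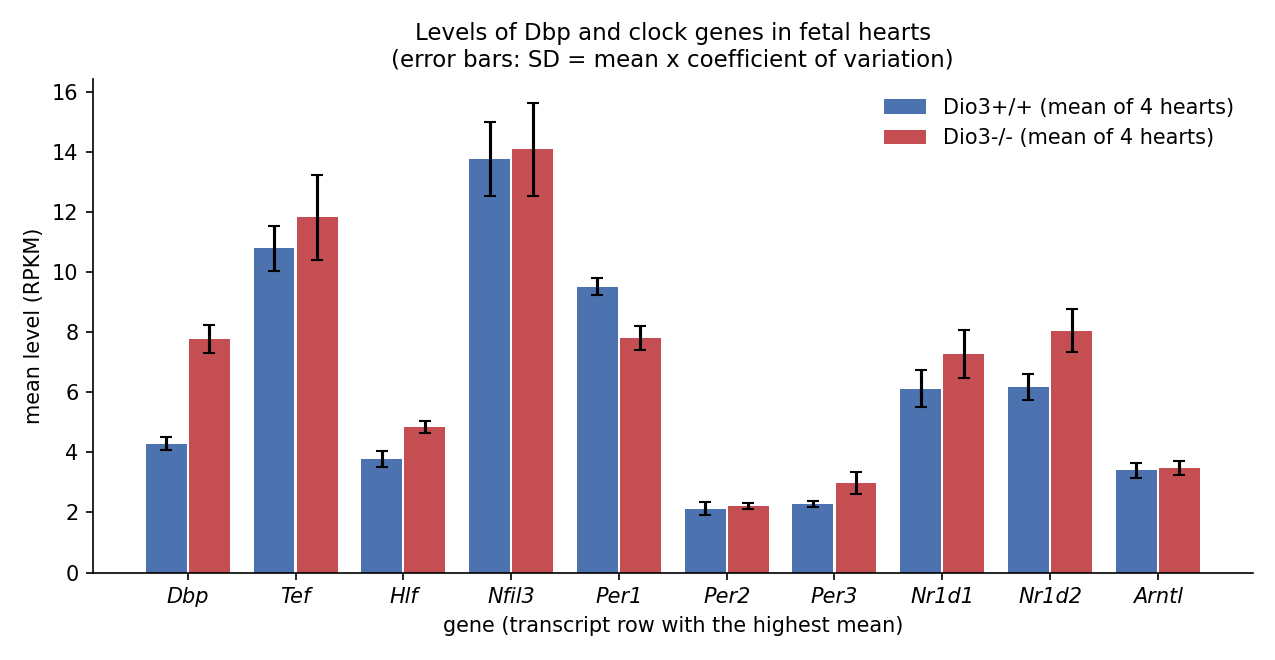
Mean level in RPKM (vertical axis, from 0) of the 10 clock genes in the hearts of 4 Dio3+/+ fetuses (blue) and 4 Dio3-/- fetuses (red), with error bars of 1 SD calculated from the deposited CV. Dbp stands at 4.29 RPKM in the Dio3+/+ and 7.77 RPKM in the Dio3-/- genotype with bars far apart, whereas the bars of Nfil3, Tef, Per2, Nr1d1 and Arntl overlap.

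The comparison of genotypes asks which transcripts change in the fetal heart when the clearance of thyroid hormone is lost. Among the PAR bZIP activators Dbp and Hlf rose in Dio3-/- hearts, and the highest row of Tef and the repressor Nfil3 did not pass the test. The fold changes are differences of log2(RPKM + 0.5), a scale that understates the change of low genes. They were tested with limma from the deposited means and CVs, with Benjamini-Hochberg adjustment over 32703 rows. Because the table pools whole hearts, fewer cells of a type and less RNA per cell cannot be told apart.

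Dbp had a mean of 4.29 RPKM (CV 0.05) in the Dio3+/+ and 7.77 RPKM (CV 0.06) in the Dio3-/- genotype, a ratio of 1.81. The ranges of 1 SD around these means were far from meeting. The log2 fold change was 0.79 (standard error 0.06, 4 hearts per genotype, 95% confidence interval 0.65 to 0.93, adjusted P = 0.00038 by limma). This difference was known when the genes were listed and is no independent support. With Welch's test, which the study's Methods name, run here on the deposited means and CVs, the adjusted P value was 0.053. The study's own list of differentially expressed genes in these hearts holds Dbp, Tef, Hlf and Per1. Why that list differs from the Welch's test run here was not tested. The study also counts Dbp among genes regulated by T3, the active thyroid hormone. By quantitative PCR it reports higher Dbp in craniofacial tissue and placenta of older Dio3-/- fetuses. Dbp has a single row, and on the opposite strand 18.0% of its exonic bases in GENCODE (GRCm38) are shared with Sphk2, which encodes a sphingosine kinase. Sphk2 had means of 5.99 RPKM (CV 0.10) and 7.53 RPKM (CV 0.02) (log2 fold change 0.31, adjusted P = 0.058 by limma). Whether reads were counted by strand is not stated, so reads of the shared stretch cannot be told apart.

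Hlf, an activator also known from blood stem cells, had means of 3.77 RPKM (CV 0.07) in the Dio3+/+ and 4.85 RPKM (CV 0.04) in the Dio3-/- genotype. The log2 fold change was 0.33 (95% confidence interval 0.18 to 0.47, adjusted P = 0.041 by limma). The other 3 rows of Hlf had log2 fold changes from 0.27 to 0.28 and adjusted P values from 0.063 to 0.071, so the call rested on the highest row. Subtracting the median log2 ratio of all rows ended it (adjusted P = 0.073), as did 3 of the other alternatives.

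Tef had means of 10.79 RPKM (CV 0.07) and 11.82 RPKM (CV 0.12) in its highest row, uc007wxl.1, and the ranges of 1 SD overlapped. For this row the log2 fold change was 0.13 (95% confidence interval −0.07 to 0.32, adjusted P = 0.48 by limma). Rows uc007wxj.2 and uc007wxk.2 had far less spread, with CVs of 0.03 in Dio3+/+ and 0.02 in Dio3-/- hearts. The former had means of 6.25 and 7.27 RPKM and the latter 6.12 and 7.14 RPKM, with log2 fold changes of 0.20 and 0.21 and adjusted P values of 0.063 and 0.061 by limma. A lower row, uc007wxi.2, had a log2 fold change of 0.04, and the last, at 0.31 and 0.27 RPKM, was not tested. The answer for Tef thus depended on the transcript row, and none of its rows passed by limma. The study's own list holds Tef, without naming a transcript row.

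Nfil3, whose protein competes with the PAR bZIP activators, had means of 13.77 RPKM (CV 0.09) and 14.09 RPKM (CV 0.11). The log2 fold change of 0.03 had a 95% confidence interval of −0.16 to 0.23. The summed means of Dbp, Tef and Hlf were 18.85 RPKM in the Dio3+/+ and 24.44 RPKM in the Dio3-/- genotype, which is 1.37 and 1.74 times the mean of Nfil3. Dbp made up 22.8% of the sum of the activators in Dio3+/+ and 31.8% in Dio3-/- hearts. These sums and ratios of means carry no error, since covariances between transcripts cannot be had from the table.

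**Figure D2:**
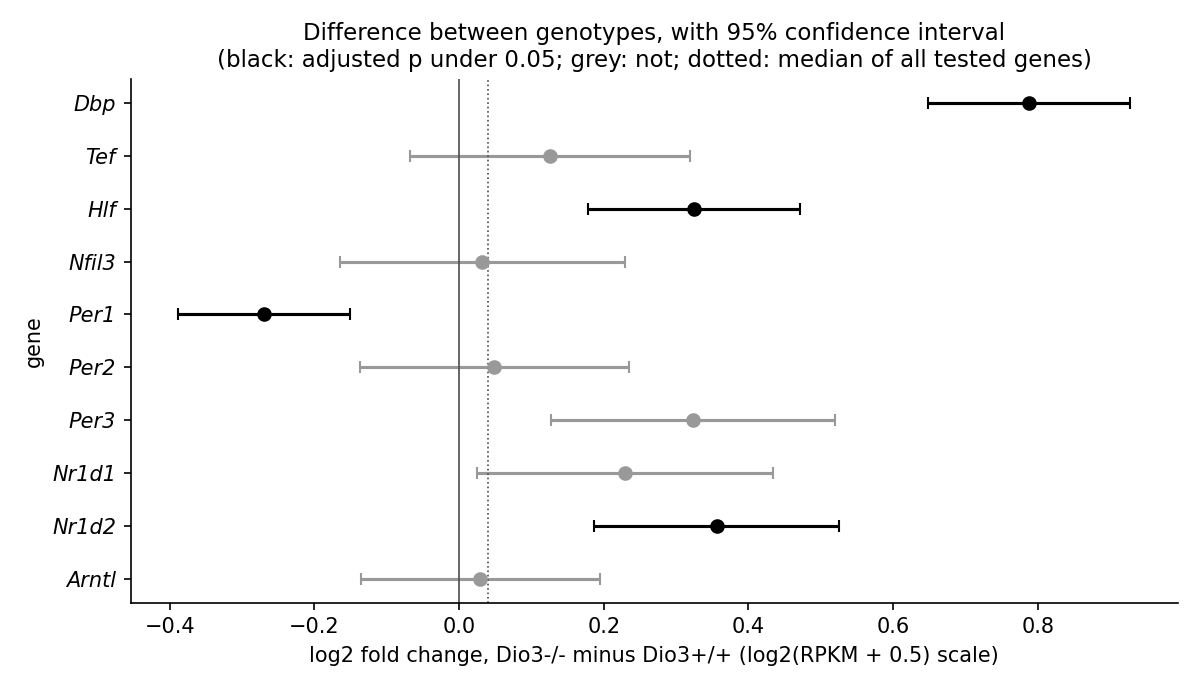
Log2 fold change (horizontal axis, Dio3-/- minus Dio3+/+ on the log2(RPKM + 0.5) scale) of the highest row of each clock gene, with its 95% confidence interval, in black where the adjusted P value was under 0.05 and in grey otherwise. Dbp at 0.79 stands to the right of the other genes, Per1 at −0.27 is the gene on the left of 0, and the dotted line is the median of all tested genes (0.04).

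Of the period genes, Per1 passed the test and Per2 and Per3 did not. Per1, a period gene that also responds acutely to cAMP and glucocorticoid signals, fell in Dio3-/- hearts. Its highest row had means of 9.52 RPKM (CV 0.03) in the Dio3+/+ and 7.81 RPKM (CV 0.05) in the Dio3-/- genotype, and the ranges of 1 SD did not overlap. The difference on the log2 scale was −0.27 (standard error 0.05, 95% confidence interval −0.39 to −0.15, adjusted P = 0.037 by limma). All 4 rows of Per1 passed, with log2 fold changes from −0.28 to −0.27 and adjusted P values from 0.035 to 0.044. Rows of a gene are transcripts of the same locus and are not 4 separate measurements. The call was lost with each CV raised by its largest rounding error (adjusted P = 0.061), without the expression limit (0.059) and with Welch's test (0.081).

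Per3 had means of 2.28 RPKM (CV 0.05) and 2.98 RPKM (CV 0.12), whose ranges of 1 SD did not overlap. Its log2 fold change of 0.32 (95% confidence interval 0.13 to 0.52) did not pass (adjusted P = 0.085 by limma). The log2 fold changes of its 7 rows lay between 0.30 and 0.37, and the adjusted P values between 0.084 and 0.11. Per2, at 2.13 RPKM (CV 0.10) and 2.22 RPKM (CV 0.05), had a log2 fold change of 0.05 (95% confidence interval −0.14 to 0.23), and its lowest row had −0.04. The sum of the period means was 13.93 RPKM in the Dio3+/+ and 13.01 RPKM in the Dio3-/- genotype, and the share of Per1 in it was 68.3% and 60.0%. Differences between the fold changes of the period genes were not tested, because that needs the values of single hearts.

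The REV-ERB repressors and their target Arntl come next in the loop. Nr1d2, which encodes REV-ERB beta, rose from a mean of 6.18 RPKM (CV 0.07) in Dio3+/+ to 8.05 RPKM (CV 0.09) in Dio3-/- hearts. This is a log2 fold change of 0.36 (95% confidence interval 0.19 to 0.53, adjusted P = 0.048 by limma). Its second row gave 0.35 (adjusted P = 0.059), and the call on the highest row was lost in 5 of 9 alternatives, centring among them (adjusted P = 0.084). Nr1d1, which encodes REV-ERB alpha, had means of 6.12 RPKM (CV 0.10) and 7.26 RPKM (CV 0.11). Its log2 fold change of 0.23 (95% confidence interval 0.02 to 0.43) did not pass (adjusted P = 0.21 by limma).

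The 3′ end of Nr1d1 lies opposite that of Thra, the gene of thyroid hormone receptor alpha, and 8.55% of its exonic bases are shared. Thra had means of 46.32 RPKM (CV 0.05) and 46.45 RPKM (CV 0.04). Reads of the shared stretch cannot be assigned to a strand here. Arntl had means of 3.40 RPKM (CV 0.07) and 3.48 RPKM (CV 0.07) (log2 fold change 0.03, 95% confidence interval −0.14 to 0.19), and its 6 rows lay between −0.05 and 0.08. The summed means of Nr1d1 and Nr1d2 were 12.30 RPKM in the Dio3+/+ and 15.31 RPKM in the Dio3-/- genotype.

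**Figure D3:**
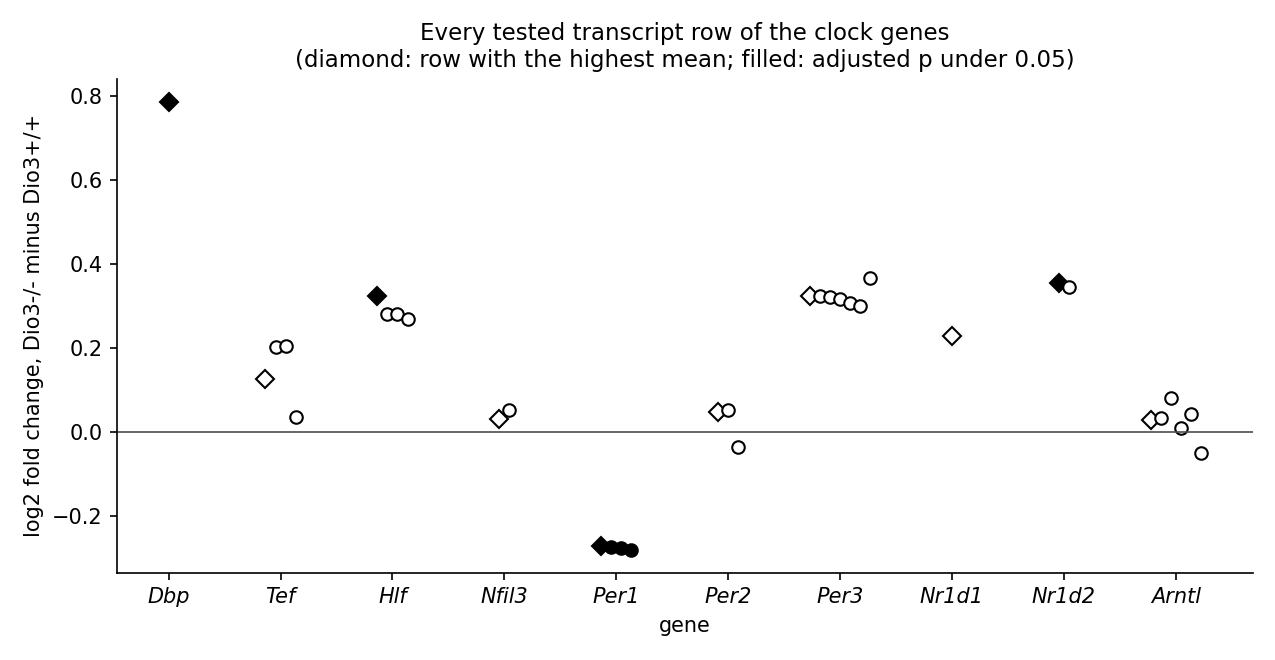
Log2 fold change (vertical axis, Dio3-/- minus Dio3+/+) of all 34 tested transcript rows of the clock genes, with a diamond for the highest row and filled symbols for rows with an adjusted P value under 0.05. The rows of Per1 lie together below 0 and those of Per3 and Hlf together above it, whereas the rows of Tef spread from 0.04 to 0.21.

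Of the 10 clock genes, 4 passed by limma in their highest row at an adjusted P value of 0.05, Dbp, Hlf and Nr1d2 higher and Per1 lower in Dio3-/- hearts. Without Dbp it was 3 of 9. Over all 14657 tested genes 2.29% passed, 1.91% higher and 0.382% lower. Centred on the median log2 ratio, the 4 calls became 2, Dbp higher and Per1 lower. An unadjusted P value under 0.05 was found for 6 of the 10, against 19.7% of all tested genes. The median log2 fold change was 0.18 over the 10 genes and 0.04 over all tested genes, and 9 of the 10 were above 0, although Nfil3 and Arntl turned negative on centring. As the list was made with results known, the excess over all genes is a description. Run here on the deposited means and CVs, Welch's test passed 0 of the 10 after adjustment and 5 of them before it, against 0.177% and 16.4% of all tested genes.

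Of the 12 other core clock genes listed, 9 were tested. Of these, 0 passed by limma or by Welch's test, against 2.29% and 0.177% of all tested genes. For 9 genes a count of 0 lies near those shares. An unadjusted P value of 0.05 was undercut by 2 with limma and 1 with Welch's test, against 19.7% and 16.4% of all tested genes. The median log2 fold change of the list was 0.11. Clock, the partner of BMAL1, had means of 12.99 RPKM (CV 0.06) and 14.04 RPKM (CV 0.08), a log2 fold change of 0.11. Bhlhe40, an E-box repressor, had means of 11.29 RPKM (CV 0.16) and 15.03 RPKM (CV 0.10) (log2 fold change 0.40, adjusted P = 0.094). Cry2, a cryptochrome repressor, had means of 9.79 RPKM (CV 0.14) and 7.80 RPKM (CV 0.10) (log2 fold change −0.31, adjusted P = 0.14). Timeless had a log2 fold change of −0.02. Cry2 was the only tested gene of this list below −0.02. Npas2 (0.59 and 0.58 RPKM), Arntl2 (0.77 and 0.80 RPKM) and Rorb (0.24 and 0.30 RPKM) were under the limit for testing.

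The kinases, ubiquitin ligases and corepressors that act on clock proteins were close to equal between genotypes. Of 11 listed genes 10 were tested, and the log2 fold changes lay between −0.11 and 0.08. Of the 10, 0 passed by limma or by Welch's test, against 2.29% and 0.177% of all tested genes. For 10 genes a count of 0 lies near those shares. Unadjusted P values under 0.05 numbered 0 by either test, against 19.7% and 16.4% of all tested genes. The casein kinase genes Csnk1d and Csnk1e had log2 fold changes of 0.03 (95% confidence interval −0.10 to 0.16) and 0.0026 (−0.10 to 0.10). Nono and Ncor1, which encode corepressor proteins, had −0.03 and 0.05.

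Among 15 genes known as outputs of the clock in other tissues, 13 were tested and 1 passed, against 2.29% of all tested genes. Alas1, the first enzyme of heme synthesis, rose from a mean of 23.73 RPKM (CV 0.04) in Dio3+/+ to 28.52 RPKM (CV 0.02) in Dio3-/- hearts (log2 fold change 0.26, 95% confidence interval 0.16 to 0.36, adjusted P = 0.021 by limma). Tspan4, which encodes a tetraspanin, had means of 8.62 RPKM (CV 0.06) and 10.18 RPKM (CV 0.03) (log2 fold change 0.23, adjusted P = 0.065). The most abundant of the others, Tsc22d3, Wee1, Herpud1 and Por, had log2 fold changes of −0.08, 0.08, 0.12 and 0.11. The log2 fold changes of the whole list lay between −0.08 and 0.33, with a median of 0.12. Of its 13 tested genes 5 had an unadjusted P value under 0.05 by limma, against 19.7% of all tested genes.

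Further lists hold immediate early genes and genes that respond to glucocorticoids or to thyroid hormone. A link between these lists and the clock genes, Per1 among them, was not tested. Of 7 tested immediate early genes 1 passed by limma and 0 by Welch's test, against 2.29% and 0.177% of all tested genes. The gene was Fos, with means of 4.01 RPKM (CV 0.18) in Dio3+/+ and 2.21 RPKM (CV 0.11) in Dio3-/- hearts (log2 fold change −0.73, adjusted P = 0.018 by limma). Junb stood at −0.50 (adjusted P = 0.083), and the other 5 lay between −0.09 and 0.11. Of 6 glucocorticoid-responsive genes 0 passed by limma or by Welch's test, against 2.29% and 0.177% of all tested genes. For 6 genes a count of 0 lies near those shares. Unadjusted, 0 had a P value under 0.05 by either, against 19.7% and 16.4% of all tested genes. Dusp1, a phosphatase gene, was at −0.23, Sgk1, a kinase gene, at −0.0042 and Fkbp5, a chaperone of the receptor, at 0.13. Tsc22d3 is on this list and also on the clock output list. Of the genes that respond to T3, the active thyroid hormone, Klf9, Art3 and Gpd2 rose, with log2 fold changes of 1.93, 2.01 and 0.35. Hr, at 0.33 and 1.23 RPKM, also passed the test (log2 fold change 1.06), but it reached the limit of 1 RPKM in Dio3-/- hearts only, and Dio1 and Thrsp were under the limit in both genotypes. Some of these genes were listed because the study names them for these hearts, so they are no independent evidence of direction.

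**Figure D4:**
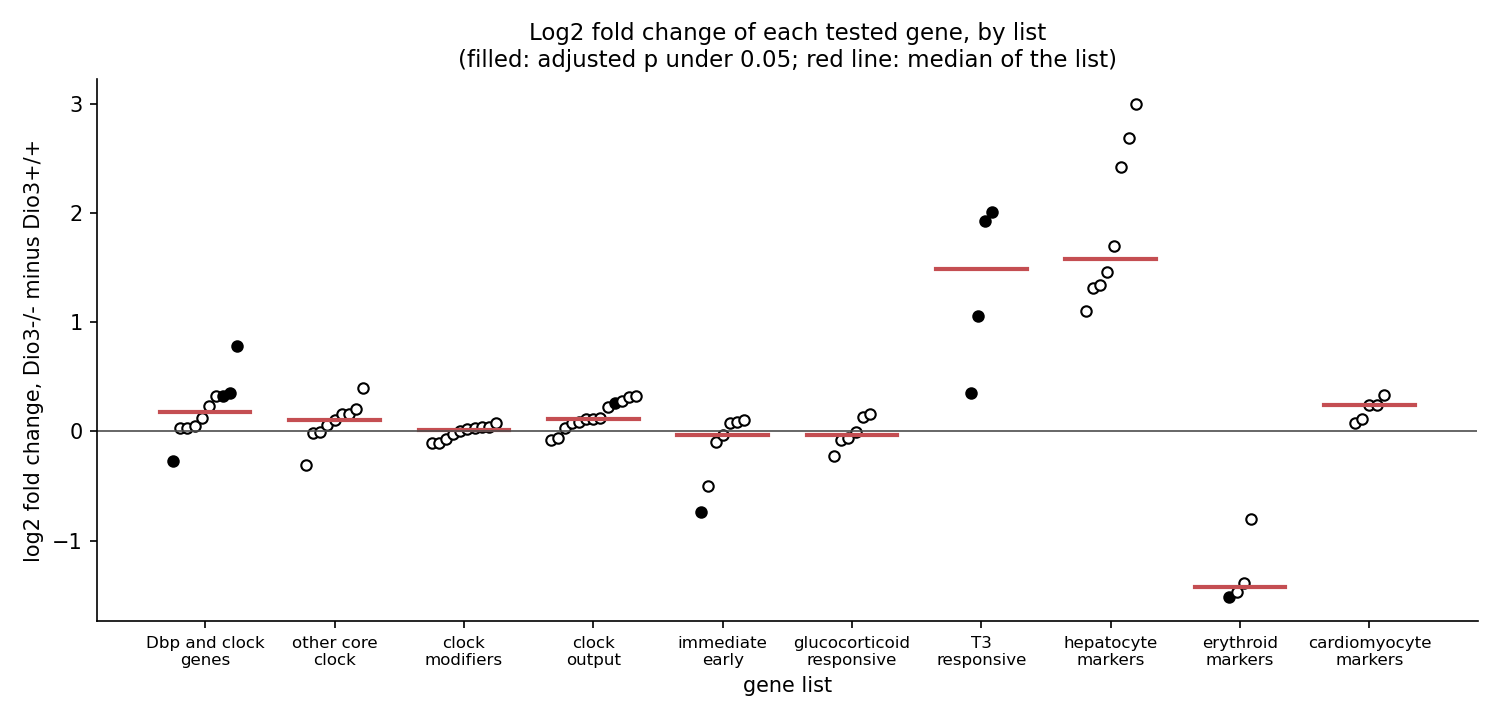
Log2 fold change (vertical axis, Dio3-/- minus Dio3+/+) of each tested gene of 10 lists, with filled circles for an adjusted P value under 0.05 and a red line at the median of each list. The clock genes lie between −0.27 and 0.79, the clock modifiers within 0.11 of 0, and the hepatocyte and erythroid markers far above and far below them.

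Markers of other cells were measured in the same hearts. All 8 hepatocyte markers had higher means in Dio3-/- hearts, none was at 0, and their summed means were 22.7 RPKM in the Dio3+/+ and 119.3 RPKM in the Dio3-/- genotype. Of the 8, 0 passed by limma or by Welch's test, against 2.29% and 0.177% of all tested genes. Unadjusted, 8 had a P value under 0.05 by limma and 0 by Welch's test, against 19.7% and 16.4% of all tested genes. Of those 8, Ttr, Ahsg and Fgb reached the limit of 1 RPKM in Dio3-/- hearts only, so their count is no support. The CVs of the 8 were from 0.18 to 1.41 in Dio3+/+ and from 0.68 to 1.26 in Dio3-/- hearts. The 4 erythroid markers found had summed means of 10440 RPKM in the Dio3+/+ and 3774 RPKM in the Dio3-/- genotype. Their CVs were from 0.31 to 0.40 in Dio3+/+ and from 0.46 to 0.54 in Dio3-/- hearts. Of these, 1 passed by limma, Hbb-bh1 (log2 fold change −1.51, adjusted P = 0.047), and 0 by Welch's test, against 2.29% and 0.177% of all tested genes. An unadjusted P value under 0.05 was found for 4 by limma and 3 by Welch's test, against 19.7% and 16.4% of all tested genes. The 5 cardiomyocyte markers, Actc1 and Tnnt2 among them, were abundant in both genotypes, with log2 fold changes from 0.08 to 0.33. Endothelial markers lay between 0.09 and 0.15 and fibroblast markers between −0.34 and 0.03. The part of these cells in the values of the clock genes was not tested.

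Among the 336 genes whose highest row passed, 23 had a log2 fold change above that of Dbp, and 280 were higher in Dio3-/- hearts. The genes nearest to Dbp in log2 fold change were Pirt (0.78), Adm (0.80), Igfbp6 (0.77), Ehd4 (0.77) and the clone mKIAA1061 (0.76). Igfbp6, at 0.78 and 1.68 RPKM, reached the limit for testing in Dio3-/- hearts only. Adm, which encodes the vasodilator peptide adrenomedullin, had means of 3.04 RPKM (CV 0.08) and 5.66 RPKM (CV 0.13), close to those of Dbp. Ehd4, which encodes a membrane trafficking protein, was far more abundant, at 54.79 and 93.64 RPKM. With only 2 genotype means per gene, likeness here means an equal fold change. By its level, an average of 6.03 RPKM over both genotypes, Dbp lay above 64.6% of all gene symbols in the table, tested or not. It lay below the median level of the tested genes, 9.52 RPKM.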

How the data were processed

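Total RNA of each heart was depleted of ribosomal RNA, sequenced as single-end reads and aligned by the authors with NovoAlign (version 2.08). Only uniquely mapping reads were used, and samples were brought to the read number of the smallest one by linear scaling. The genome build is not given in the sources used here. What the authors deposited is a mean per genotype, taken as RPKM from the limit in their Methods because the header names no unit. Beside it the authors deposited the coefficient of variation (a ratio, SD over mean). Both are rounded to 2 decimals. The fold changes and q values of the authors were not used in any calculation here.

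For each row, log2(mean + 0.5) was calculated, with its SD by the delta method. With 6 residual degrees of freedom, variances were moderated by limma (3.58.1, R 4.3.3) with a mean-variance trend, and P values were adjusted over the 32703 rows above 1 RPKM in at least 1 genotype. The procedure was tested on simulated data, with rows drawn independently and changes larger than that of any member. That run does not show how the procedure performs for smaller changes. The design had foreseen single hearts where the table held them. It did not, so the fit from summaries was used. Precision rests on 4 hearts per genotype. Members and lists were chosen with earlier results of these data known. All members are named, and other genes were taken from list genes past the test, up to 4 further genes per list with the highest means, the T3, glucocorticoid, immediate early and marker genes, genes overlapping members, and the 5 called genes nearest to Dbp. Tspan4 and the genes under the limit of testing lie outside this rule and were named after their values were seen. Promoters came from RefSeq and overlaps from GENCODE vM21.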

Additional observations from a re-analysis of the deposited data

How the results depend on the processing

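No paired analysis was possible because the table holds genotype means only. For the same reason no heart could be left out. The number of clock genes that passed was 4, and it was 1 (Dbp) without the expression limit and with each coefficient of variation raised by 0.005, 2 (Dbp and Per1) after the median log2 ratio of all rows was subtracted (centring), and 0 with Welch's test. It was 3 or 4 in the other alternatives, which were pseudocounts of 0.1 and 1, a mean over all hearts above 5 RPKM (where 6 of the 10 were tested), a single row per gene, no mean-variance trend, and any row of a gene. The log2 fold change of Dbp lay between 0.73 and 0.84 in 9 alternatives and passed in 8, the exception being Welch's test (0.79, adjusted P = 0.053). Per1 stayed negative in all 9 (−0.31 to −0.26) and passed in 6, and its adjusted P values were from 0.026 to 0.081. Hlf passed in 4 of 8 (adjusted P from 0.036 to 0.092) and Nr1d2 in 4 of 9 (from 0.039 to 0.17). Centring by 0.04 turned Nfil3 (−0.0059) and Arntl (−0.0086) negative, which shows no direction for either. The 1 clock output gene that passed became 0 with Welch's test, and the other core clock and modifier lists kept 0 in every alternative. Over all genes, the 336 that passed in their highest row became 197 without the limit, 187 with the raised coefficients, 180 with centring and 26 with Welch's test, and the share higher in Dio3-/- hearts went from 83.3% to 71.7% with centring and 96.2% with Welch's test. The causes of these shifts were not tested. The table gives no depth per heart, so its effect on these values was not tested.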
